A study of Mus musculus with 13 samples.

Results

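Acetylation of lysine 27 on histone H3 (H3K27ac) was compared between mouse bone marrow-derived macrophages given interleukin-4 (IL-4, 10 ng/ml) for 2 h and untreated macrophages, with 1 chromatin immunoprecipitation sequencing (ChIP-seq) library of each. Both libraries came from primary bone marrow cells of C57BL/6 mice, grown in medium conditioned by L929 cells and taken on day 7 of differentiation, and the labels name no allele, shRNA or other agent in either of them. The units compared are regions. Islands of enriched reads that overlapped by at least 1 bp between both libraries were merged, which gave 31783 regions, where islands of all 13 libraries of the series merge into 39569. An island lay in 26239 of the 31783 regions in IL-4 cells, in 27158 in untreated cells, and in 21614 in both. Of the other libraries, used below for values side by side, 5 came from cells given IL-4 (10 ng/ml) for 4 h, interferon-γ (IFNγ, 100 ng/ml) for 2 h or 4 h, or IFNγ with IL-4 for 2 h or 4 h, and 3 from untreated cells carrying a scramble shRNA, an shRNA against Junb (shJunB) or an shRNA against Cebpb (shCEBP-beta). With 1 library per condition there is no replicate error to judge a difference by, and no test between conditions was possible.

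IL-4 is the cytokine that turns macrophages toward alternative activation, the state seen in helminth infection, allergy and tissue repair. It binds the IL-4 receptor α chain, which pairs with the common γ chain or with the IL-13 receptor α1 chain, and the Janus kinases on these chains phosphorylate the transcription factor STAT6. STAT6 dimers bind palindromes made of TTC and GAA with a short spacer and switch on genes for arginine use, lectins, chitinase-like proteins and cell fusion. H3K27ac is laid down at active promoters and enhancers, so the mark shows which regulatory regions are in use.

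The deposited files fix the ratio of the library totals but not the totals themselves. The smallest totals that fit were 23593979 reads in IL-4 cells and 21712118 in untreated cells. With these totals 80.0% of reads in IL-4 cells and 77.5% in untreated cells lay in islands. Control totals of 14110230 and 28220460 reads both fit, and larger totals would give smaller shares in islands. Islands covered 188 Mb in IL-4 cells and 183 Mb in untreated cells. Read counts per region were divided by a library factor, set so that the median ratio over regions called in both libraries is 1, and are called normalised reads. The words higher and lower are used of a region or gene whose normalised reads were 2-fold apart or more, the larger value being 50 or above, and 30382 regions and 12986 protein-coding genes had enough reads. A gene with no island in a library is given as not called, since signal under the threshold is not listed, and its log2 ratio uses a low fill-in value, the 5th percentile of reads per island of that library. The range in brackets after a fold is an exact 95% binomial interval, which covers counting error only. Between untreated scramble cells and the untreated library used here, which differ in shRNA and experiment but not in cytokine, 7.47% of 13593 genes were higher and 4.28% lower by the same 2-fold rule. That comparison used islands merged over all 13 libraries and factors over the regions called in all of them. With islands merged over 13 libraries, but a factor from these 2 alone, IL-4 over untreated cells gave 9.35% of 13300 genes higher and 10.7% lower.

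The promoters below belong to genes whose regions at the transcript start were called higher, and they are shown for the presence or absence of STAT6-type palindromes. Each runs from 250 bases before the RefSeq transcript start to 30 after it (build GRCm38.p6, 5′ to 3′). Capitals mark TTC and GAA with 4 bases between them (the STAT6-type palindrome) in the first 3. Msx3 had the highest ratio of any gene called in both libraries and no STAT6-type palindrome in this window.
Tmem26, chr10:68723496-68723775, plus strand: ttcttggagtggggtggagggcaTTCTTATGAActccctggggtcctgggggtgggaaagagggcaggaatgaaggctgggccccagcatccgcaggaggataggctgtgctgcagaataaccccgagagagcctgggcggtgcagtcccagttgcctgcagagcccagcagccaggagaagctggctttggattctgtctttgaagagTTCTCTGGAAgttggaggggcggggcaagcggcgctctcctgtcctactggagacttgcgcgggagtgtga
Edn1, chr13:42301226-42301505, plus strand: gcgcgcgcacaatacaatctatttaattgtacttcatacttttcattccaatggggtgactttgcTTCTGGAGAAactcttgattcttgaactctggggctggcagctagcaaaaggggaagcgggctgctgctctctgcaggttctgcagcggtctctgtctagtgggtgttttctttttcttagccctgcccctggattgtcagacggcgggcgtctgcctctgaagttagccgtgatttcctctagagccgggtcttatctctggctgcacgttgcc
Itgax, chr7:128129300-128129579, plus strand: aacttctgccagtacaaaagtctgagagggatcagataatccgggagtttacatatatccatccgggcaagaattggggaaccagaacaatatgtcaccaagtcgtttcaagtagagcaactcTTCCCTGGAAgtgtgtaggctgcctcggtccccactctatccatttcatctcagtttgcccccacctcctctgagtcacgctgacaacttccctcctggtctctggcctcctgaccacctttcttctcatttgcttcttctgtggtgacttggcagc
Msx3, chr7:140049059-140049338, minus strand: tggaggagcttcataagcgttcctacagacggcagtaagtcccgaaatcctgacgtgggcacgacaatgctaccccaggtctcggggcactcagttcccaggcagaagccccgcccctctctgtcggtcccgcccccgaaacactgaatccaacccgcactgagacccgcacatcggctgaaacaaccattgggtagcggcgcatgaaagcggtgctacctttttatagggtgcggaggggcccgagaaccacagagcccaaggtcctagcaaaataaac
In the region at the Tmem26 start, chr10:68700201-68737600, IL-4 cells had 2632 normalised reads and untreated cells no island. The Edn1 region held 2799 normalised reads in IL-4 cells and 84.0 in untreated cells, the first Itgax region 1193 and 484.6, and the Msx3 region 5075 and 49.5, each pair given as IL-4 and then untreated cells. Across all 21263 promoter windows of protein-coding genes, 300 bases each and searched on both strands, the STAT6-type palindrome was present in 6.35%. Of 873 windows whose start lay in a region called higher 56 held it (6.41%), and of 778 in a region called lower 46 did (5.91%). Of 9274 windows in regions called neither 504 did (5.43%). The AP-1 motif TGANTCA was in 7.10% of windows in higher regions, 7.20% in lower regions, 4.72% in regions called neither and 6.99% of all, and the ETS motif CAGGAAG in 13.1%, 13.9%, 12.8% and 12.5% in the same order. Each motif's share was thus similar in the higher and the lower regions, and the windows do not reach the distal part of the regions.

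Across the genome 4497 regions were higher (14.8% of those tested) and 5830 lower (19.2%) in IL-4 cells. Compared by reads per kb of called length the counts were 1224 and 2182. Of the higher regions 2062 had no island in untreated cells, and of the lower regions 2297 had none in IL-4 cells. Regions were called on reads summed inside islands, which favours longer and denser islands in the library with more reads. The lengths and densities given next thus follow in part from the calls and are a description. Among the 2435 higher regions called in both libraries the median called length was 8600 bp in IL-4 cells and 3600 bp in untreated cells, and 2377 of them were longer with IL-4. Their median density was 70.7 normalised reads per kb in IL-4 cells and 47.4 in untreated cells. Among the 3533 lower regions called in both the median was 3800 bp in IL-4 cells and 7600 bp in untreated cells, with 44.5 and 76.5 normalised reads per kb. The 15502 regions called in both that passed in neither direction had a median of 4200 bp in each library.

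**Figure D1:**
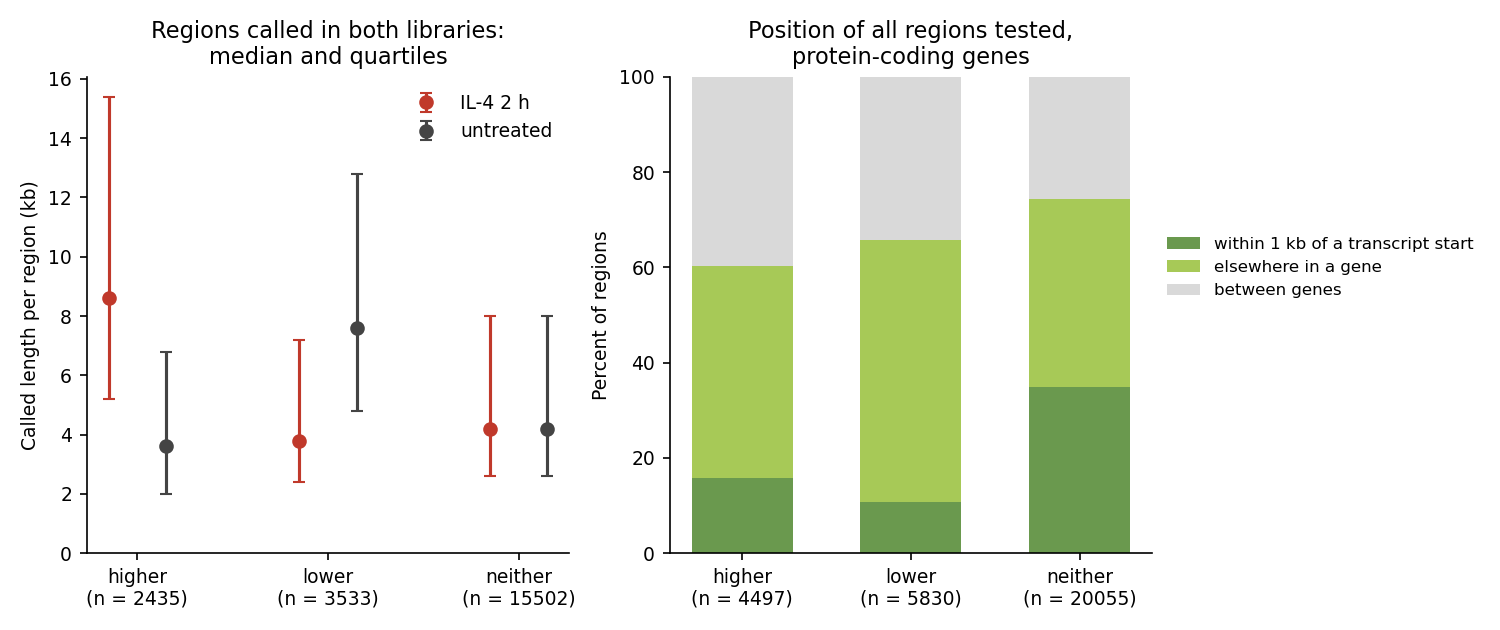
Called length per region in kb (left; points are medians and bars the quartiles, red IL-4 2 h, dark grey untreated) and position of regions relative to protein-coding genes in percent (right), by call. Higher regions were longer with IL-4 (8600 against 3600 bp) and lower regions shorter (3800 against 7600 bp), differences that calls on reads inside islands favour. Changed regions lay less often at transcript starts than the rest.

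Changed regions lay away from promoters more than the rest did. Of the higher regions 15.9% touched the 1 kb on either side of a transcript start of a protein-coding gene, 44.4% lay elsewhere in a gene and 39.7% between genes. The lower regions divided into 10.7%, 55.1% and 34.2%, and the regions called neither into 34.9%, 39.6% and 25.6%. Read the other way, 8.57% of the 8325 tested regions at starts were higher and 7.48% lower, against 20.0% and 22.4% of the 8914 tested regions between genes. A lower share at starts held among regions called in both libraries, with 7.20% higher and 6.86% lower at starts and 16.3% higher between genes. Regions at starts had a median length of 4800 bp and those between genes 4200 bp.

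Summed over the regions that touch a gene's span or 1 kb beside it, 1282 protein-coding genes were higher (9.87% of those tested) and 1387 lower (10.7%). On density, reads divided by the length called, 532 passed as higher and 395 as lower, so the balance turned round. Of the genes called by summed reads, 207 of the higher genes were not called in untreated cells and 168 of the lower genes not in IL-4 cells. The median log2 ratio over all genes tested was 0.08. A region can span several genes, and 43.8% of the genes with a region shared one, which is named below for the genes concerned. Since summed reads move with called length, the density was compared too, and of the 81 named genes that were higher 37 were also 2-fold higher per kb of called length, as were 26 of the 54 lower ones in their direction.

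**Figure D2:**
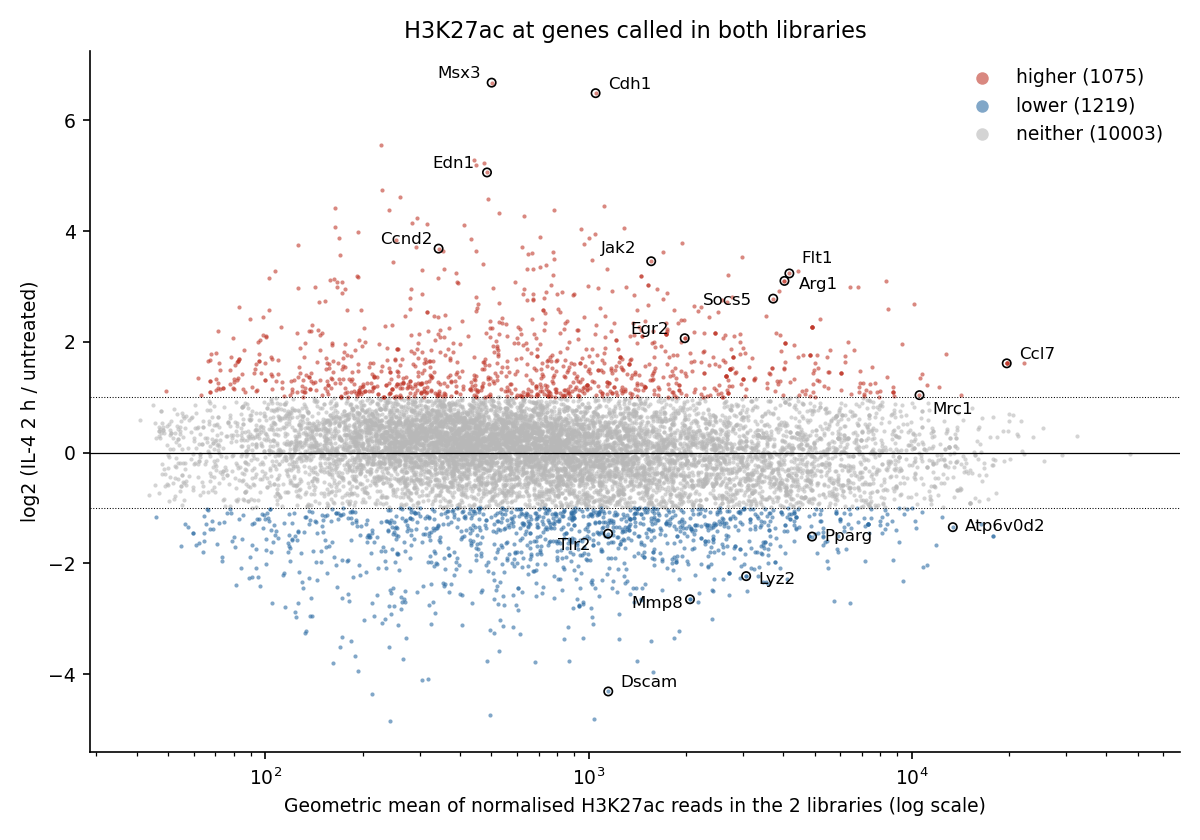
log2 ratio of normalised reads in IL-4 cells over untreated cells (vertical axis) against the geometric mean of the reads in both libraries (horizontal axis, log scale) for protein-coding genes called in both, with 1 point per gene. The 1075 higher genes are red, the 1219 lower genes blue and the others grey, dotted lines mark 2-fold, and named genes are ringed.

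The 12 highest ratios among genes called in both libraries fell between 21.4-fold and 102-fold. Msx3, a homeobox gene, had 5075 normalised reads in IL-4 cells and 49.5 in untreated cells, 102-fold (76.7 to 140). Its called length was 23.6 kb with IL-4 and 1.0 kb without. Cdh1, which encodes E-cadherin, the adhesion molecule induced during macrophage fusion, had 9962 and 110.9 normalised reads in the same order, 89.8-fold (74.0 to 110.1). Spsb1, a SOCS-box adaptor gene, was 46.7-fold higher, Tarm1, a receptor gene of myeloid cells, 38.7-fold, Scn3a, a sodium channel gene, 37.4-fold, and Ppp2r3a, a regulatory subunit of protein phosphatase 2A, 36.6-fold. Edn1, which encodes endothelin-1, was 33.3-fold higher (26.6 to 42.3). Ank3, Tmem52b, Tuba8, Cdh3 and Cd207, which encode an ankyrin, a membrane protein, a tubulin, P-cadherin and langerin, lay between 21.4-fold and 26.8-fold, and Tmem52b shares its region with Olr1, an oxidised LDL receptor gene. Much of these folds lay in called length, which at Spsb1 was 29.0 kb with IL-4 and 0.8 kb without. Per kb of called length Spsb1 stood at 1.29-fold, Ppp2r3a at 1.37-fold, Tmem52b and Cd207 at 1.68-fold and Scn3a at 1.88-fold. Ank3, Tuba8, Cdh3 and Cdh1 stood at 2.08-fold to 2.77-fold per kb, Edn1 at 3.33-fold, Msx3 at 4.34-fold and Tarm1 at 4.38-fold.

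Genes with no island in untreated cells were led by Rmi2, with 5775 normalised reads in IL-4 cells, and Il31ra, a cytokine receptor gene in regions shared with Il6st, with 5766. Rmi2, a subunit of the complex that dissolves recombination intermediates, lies next to Socs1 and Clec16a on chromosome 16, where the region chr16:10828001-10870200 was called with IL-4. Next came Tmem26 with 2774, Cystm1 (shared with Pfdn1) with 2115, Pla2g4c, a phospholipase A2 gene (shared with Lig1), with 1726, Tnk2, a tyrosine kinase gene, with 1614, Micalcl (shared with Mical2) with 1597, and the olfactory receptor gene Olfr700 (shared with Olfr701) with 1446. When islands were merged over all 13 libraries, Rmi2 (then in 1 region with Socs1) and Micalcl lay in longer regions that had reads in untreated cells too, 19060 in IL-4 cells against 2520 in untreated cells for Rmi2 and 5071 against 852.1 for Micalcl.

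Low ratios among genes called in both libraries were at Lrrc14b, Cmah, Dgki and Dscam. Lrrc14b, in a region shared with Ccdc127 and Zfp72, had 45.5 normalised reads in IL-4 cells and 1300 in untreated cells (28.6-fold lower). Dscam, an adhesion molecule gene, had 258.2 and 5125 (19.9-fold lower). Cmah, which hydroxylates sialic acid, was 26.8-fold lower in reads but stood at 1.43-fold per kb, since its called length was 1.0 kb in IL-4 cells and 38.4 kb in untreated cells. Hpgd, which degrades prostaglandins, was 13.8-fold lower and Rell1 15.6-fold. Dgki, Tal2, Tmem266, Cdh4 and Mak were between 13.6-fold and 20.4-fold lower. Genes called in untreated cells but not with IL-4 were led by Kif3a, a kinesin gene, with 2138 normalised reads, St3gal6, a sialyltransferase gene, with 1832, Clec2e with 1355, Gm39773 with 1105, Gpr141 with 1097 and Gm17359 (shared with Fnip2) with 1009. Cd38, which encodes an NAD-consuming ectoenzyme, had 975.6 in untreated cells and no island with IL-4, and Gm29975 (shared with Trio) had 938.0.

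Of 19 measured genes of the IL-4 receptor and its relay 1 was higher and 1 lower, where 9.87% and 10.7% of all genes were, and the median log2 ratio was -0.11, against 0.08 for all genes. Those shares of all genes are the base for every list count in the paragraphs that follow. The lists were chosen with earlier results of these data known, so their counts are a description of the members. Il4ra, the receptor α chain, stood at 0.41, Il2rg, the common γ chain, at -0.11, Il13ra1 at -0.18, Jak1 at -0.18, Jak3 at 0.10 and Stat6 at -0.15. The 1 higher gene was Jak2, a kinase of several other cytokine receptors, with 5171 normalised reads in IL-4 cells and 471.7 in untreated cells, 11.0-fold higher (9.95 to 12.1). It lay in a single region at its start, chr19:29226001-29256400, where the called length was 30.4 kb with IL-4 and 7.6 kb without and the density 2.74 times as high. Akt1, a kinase downstream of phosphoinositide 3-kinase, had 732.7 in IL-4 cells and 1588 in untreated cells (2.17-fold lower).

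The inhibitors that feed back on cytokine receptors carried a larger share of changes, 6 higher and 1 lower of 18 (median 0.39). Socs2, a SOCS-box inhibitor gene, had 920.3 normalised reads in IL-4 cells and was not called in untreated cells. Socs5, another member, had 9764 in IL-4 cells and 1421 in untreated cells, 6.87-fold higher (6.49 to 7.28). Most of that difference lay in chr17:87138401-87195400, which begins within 1 kb of the end of the gene, with 8590 normalised reads in IL-4 cells and 596.6 in untreated cells. The other region of the gene, chr17:87103001-87111800, had 1174 and 824.9. Socs1, in a region shared with Clec16a and 4 sperm-protein genes, Prm1, Prm2, Prm3 and Tnp2, had 10797 and 2236, 4.83-fold higher, over 74.2 kb with IL-4 and 20.8 kb without. Cish, shared with Mapkapk3, Hemk1 and 6430571L13Rik, had 8920 and 2644 (3.37-fold), Ptpn2, a phosphatase of Janus kinases and STATs, 3655 and 818.4 (4.47-fold), and Dusp5, an ERK phosphatase gene, 2548 and 961.6 (2.65-fold). Per kb of called length Socs1 stood at 1.35-fold, Cish at 1.36-fold, Ptpn2 at 1.54-fold and Dusp5 at 1.06-fold. Socs6 had 514.5 in IL-4 cells and 1816 in untreated cells, but its called length fell too, to 5.0 kb with IL-4 against 24.6 kb, and per kb it stood at 1.39-fold. Socs3 stood at a log2 ratio of 0.17.

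Transcription factors of alternative activation had 7 higher and 2 lower of 24, with a median of 0.65. Gata3, best known from type 2 helper T cells, had 575.7 normalised reads in IL-4 cells and was not called in untreated cells. Egr2, an early factor of the response, in a region shared with Ado, had 4056 in IL-4 cells and 969.2 in untreated cells, 4.18-fold higher (3.89 to 4.50), over 37.4 kb and 10.2 kb. Its density was 1.14 times as high. Myc, a growth factor-responsive regulator, had 4664 and 1461 (3.19-fold), and Nfil3, a basic leucine zipper gene, 1730 and 529.8 (3.27-fold), with nearly the same called length of 14.4 and 12.6 kb. Bcl6, a repressor gene, Ets2 and Batf3 (shared with Nsl1 and Tatdn3) were 2.13-fold to 2.17-fold higher. Pparg, the lipid-sensing receptor that alternative activation later draws on, was lower, with 2907 in IL-4 cells and 8306 in untreated cells, 2.86-fold (2.74 to 2.98). Both of its regions fell, the one at the start to 1351 with IL-4 against 3003 and the one inside the gene to 1555 against 5303. Rxra, its dimer partner, had 2839 and 6148 (2.17-fold lower). Among those that passed in neither direction, Bhlhe40 stood at 0.94, Klf4 at 0.89, Cebpb at 0.74, Irf4 at 0.51 and Kdm6b, a histone H3K27 demethylase gene, at 0.51.

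The effector genes of alternative activation had 15 higher and 2 lower of 35 measured, with a median of 0.70. Retnla, Cd209a, Fn1, Ccl17 and Ccl22 touched no region of these 2 libraries and were not measured here. Arg1, which turns arginine into ornithine and urea, had 11817 normalised reads in IL-4 cells and 1378 in untreated cells, 8.57-fold higher (8.09 to 9.09). The reads lay in chr10:24867001-24935200, shared with Med23, as 1 island of 68.2 kb with IL-4 and 3 islands of 14.2 kb in all without, and the density was 1.78 times as high. Slc7a2, an arginine transporter gene (shared with Pdgfrl), had 1088 in IL-4 cells and was not called in untreated cells. Flt1, a receptor for vascular endothelial growth factor, had 12825 and 1362 (9.41-fold), with 4434 of the reads in IL-4 cells in a region inside the gene that was not called in untreated cells.

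Chitinase-like, ribonuclease and lectin genes are part of the effector list, grouped here for description and not counted apart. Chil4 had 1354 normalised reads in IL-4 cells, Rnase2a 664.0 and Chil3 193.2, and none of the 3 was called in untreated cells. Mgl2, a C-type lectin gene, had 1674 in IL-4 cells and 247.7 in untreated cells (6.76-fold, 5.89 to 7.79), and Mrc1, the mannose receptor gene (shared with Tmem236), 15137 and 7371 (2.05-fold). Clec4n, which encodes the fungal receptor dectin-2, was lower, with 850.6 in IL-4 cells and 1993 in untreated cells over a similar length of 12.6 and 10.8 kb. F13a1, which encodes the A chain of coagulation factor XIII, had 590.6 and 2025 (3.43-fold lower). Clec10a stood at a log2 ratio of 0.01, Clec4a2 at -0.31, Clec7a at 0.48, Msr1 at 0.43 and Cd163 at 0.50.

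Other effectors differed among themselves. Ccl24, which attracts eosinophils (shared with Ccl26), had 1723 normalised reads in IL-4 cells and 387.7 in untreated cells (4.45-fold). The cluster of Ccl2, Ccl7, Ccl11 and Ccl12 is 1 region, chr11:81982001-82112000, with 34379 in IL-4 cells and 11248 in untreated cells (3.06-fold, 2.99 to 3.12), and these genes cannot be told apart. Ptgs1, the constitutive cyclooxygenase gene, had 3122 and 830.3 (3.76-fold), Tgm2, a transglutaminase gene, 9940 and 3016 (3.30-fold), and Itgax, which encodes CD11c, 1829 and 668.7 (2.74-fold). Per kb of called length Ptgs1 stood at 1.15-fold, Tgm2 at 2.58-fold and Itgax at 2.14-fold. Plk2, Il1rn, Il10 and Pdcd1lg2 stayed under the rule with log2 ratios of 0.85, 0.90, 0.70 and 0.69, and so did the enzyme genes Ch25h at 0.63, Alox15, a lipoxygenase gene known as an IL-4 target, at -0.49 and Lipa at -0.91.

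**Figure D3:**
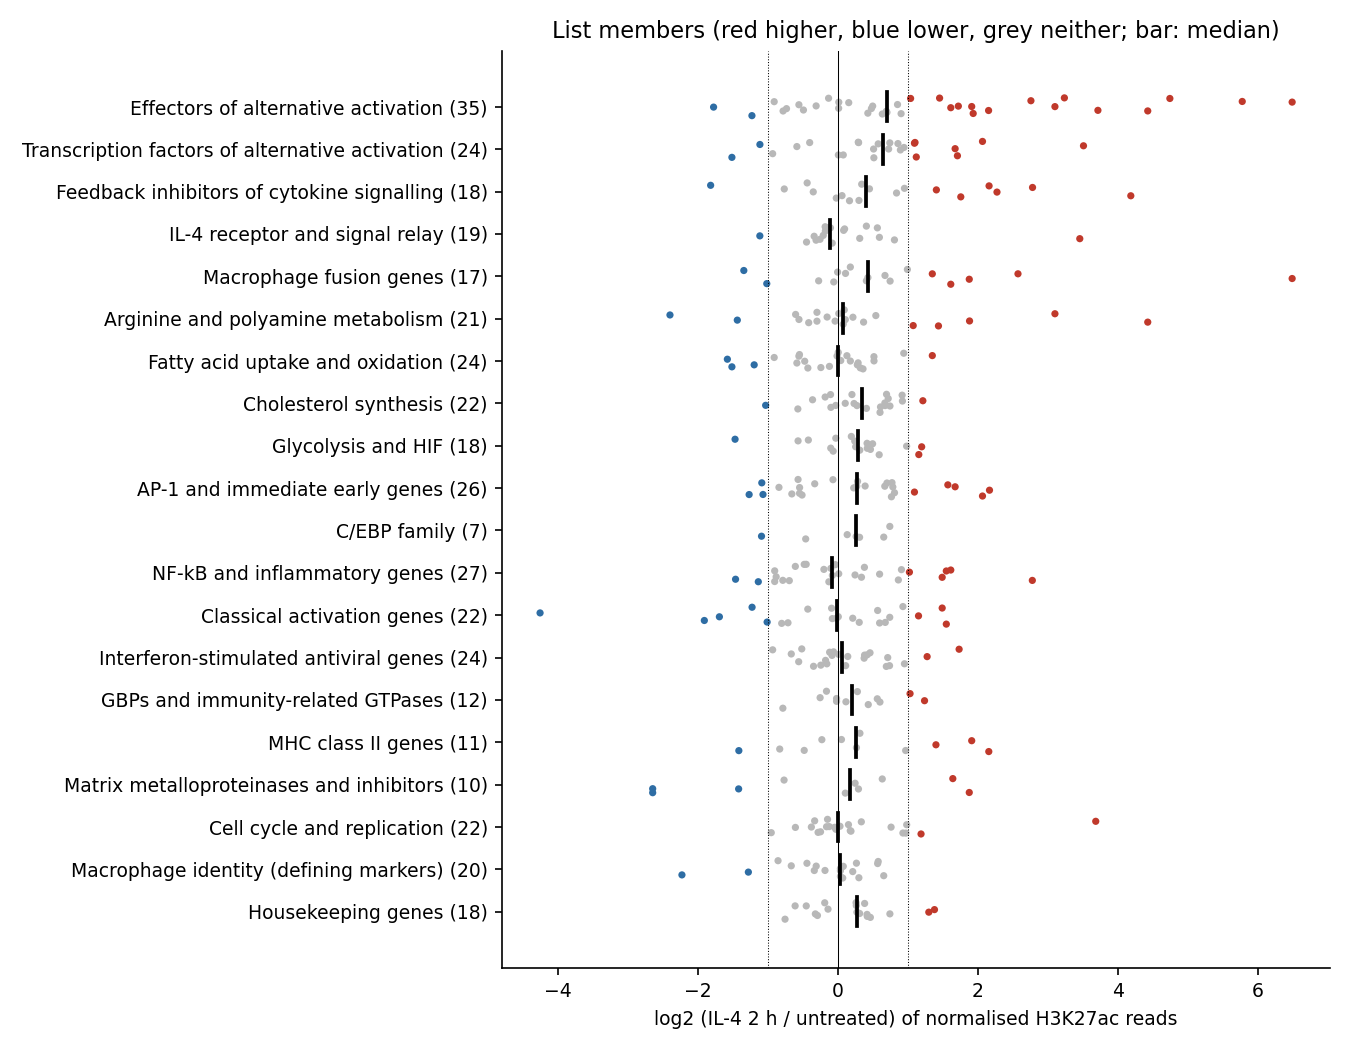
log2 ratio of normalised reads in IL-4 cells over untreated cells for each measured member of 20 gene lists, with 1 point per gene, the list's median as a bar and the number measured in brackets. The lists of effectors (median 0.70) and transcription factors of alternative activation (0.65) lie farthest to the right, and dotted lines mark 2-fold.

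Genes of macrophage fusion had 5 higher and 2 lower of 17 (median 0.43). Besides Cdh1 and Ccl2, Ocstamp, a membrane protein gene needed for fusion (shared with Slc13a3), had 4482 normalised reads in IL-4 cells and 753.8 in untreated cells (5.95-fold). Cd36, a scavenger receptor gene, had 16878 and 6630 (2.55-fold, 2.47 to 2.62), and Mmp9, a gelatinase gene, 185.7 in IL-4 cells and no island in untreated cells. Atp6v0d2, a proton pump subunit gene (shared with Slc7a13), was lower, with 8404 in IL-4 cells and 21344 in untreated cells over 84.4 and 84.8 kb, so its change was one of density (2.54-fold lower). Dcstamp had 103.4 in untreated cells and no island with IL-4, but with islands merged over all 13 libraries its log2 ratio was 0.32.

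Arginine and polyamine genes had 5 higher and 2 lower of 21 (median 0.07). Beside Arg1 and Slc7a2, Srm, the spermidine synthase gene, had 456.0 normalised reads in IL-4 cells and 123.8 in untreated cells (3.68-fold) over 2.6 and 2.4 kb. Odc1, the ornithine decarboxylase gene, had 501.5 and 238.0 (2.11-fold), and Eif5a, whose protein carries the spermidine-derived hypusine (shared with Gps2, Neurl4 and Ybx2), 3746 and 1385 (2.70-fold). Arg2, the mitochondrial arginase gene, went the other way, with 155.1 in IL-4 cells and 818.4 in untreated cells (5.28-fold lower), as did Sms, the spermine synthase gene, with 771.7 and 2090. At the Sms start alone the log2 ratio was 0.26.

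In lipid and sugar metabolism the counts stood near or under the 9.87% higher and 10.7% lower of all genes. Fatty acid uptake and oxidation had 1 higher (Cd36) and 3 lower of 24 (median -0.01), the lower ones being Pparg, Fabp5, a fatty acid carrier gene with 1216 normalised reads in IL-4 cells and 3633 in untreated cells, and Acsl1, an acyl-CoA synthetase gene with 1054 and 2416. The oxidation enzymes Cpt1a, Cpt2, Acadm and Hadha stood at log2 ratios of -0.12, 0.32, 0.28 and 0.04. Cholesterol synthesis had 1 higher, Hsd17b7 (shared with Ddr2), and 1 lower, Fdft1 (shared with Ctsb and Neil2), of 22 (median 0.34). Glycolysis had 2 higher of 18, Slc2a1, the glucose transporter GLUT1, with 4129 in IL-4 cells and 1802 in untreated cells (2.29-fold), and Eno1 (2.23-fold). Pfkfb3 was lower in reads (2.77-fold), but its called length was 16.6 kb with IL-4 and 54.8 kb without and per kb it stood at 1.19-fold.

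Of 27 NF-kB and inflammatory genes 5 were higher and 2 lower (median -0.08), where 9.87% of all genes were higher and 10.7% lower. Il1a (shared with Ckap2l) had 1764 normalised reads in IL-4 cells and 257.4 in untreated cells, but over 28.0 and 2.8 kb, and per kb it stood at 0.686-fold. Il1b had 1490 and 509.4 (2.92-fold), Nfkb1, the p105 and p50 subunit gene, 6921 and 3410 (2.03-fold), and Il6 142.1 in IL-4 cells and no island in untreated cells. Per kb Il1b stood at 1.23-fold and Nfkb1 at 1.24-fold. Tlr2, the receptor for bacterial lipoproteins, was lower, with 691.8 in IL-4 cells and 1907 in untreated cells over 7.4 and 7.8 kb (2.76-fold, 2.53 to 3.01). Nfkbiz (shared with Nxpe3) had 562.7 and 1238 at 0.993 times the density.

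Among 22 genes of classical activation 3 were higher and 5 lower (median -0.01), against 9.87% and 10.7% of all genes. Nos2, inducible nitric oxide synthase, which competes with arginase for arginine, had 265.6 normalised reads in IL-4 cells and 997.2 in untreated cells over 9.4 and 10.0 kb, 3.75-fold lower (3.28 to 4.30). Il12b, the p40 subunit of interleukin-12, had 385.4 and 1247 (3.24-fold lower) over 5.8 and 18.2 kb, at 0.970 times the density, and Slamf7 4489 and 9055 (2.02-fold lower). Fpr2, a formyl peptide receptor gene, had 119.5 in untreated cells and no island with IL-4. At the Cd38 start alone the log2 ratio was 0.01, but IL-4 cells had no island there and the ratio uses the fill-in value. Il12a was higher, with 112.4 in IL-4 cells and no island in untreated cells. Tnf, Irf1 and Irf5 stood at -0.08, -0.09 and 0.01.

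Among interferon-inducible genes, 2 of 24 antiviral genes were higher (Irf7, shared with Phrf1, Sct and Cdhr5, and Zbp1, shared with Pmepa1, both with more called length and a density under that of untreated cells). Of 12 guanylate-binding proteins and immunity-related GTPases 2 were higher (Gbp5 and Gbp7), and none of either list was lower. MHC class II genes had 3 higher and 1 lower of 11 (median 0.26), H2-DMb1, H2-DMb2 and H2-Ab1 higher and H2-Eb2 lower. Of all genes 9.87% were higher and 10.7% lower. Per kb of called length the log2 ratios of H2-DMb1 and Gbp7 turned to -0.60 and -0.12. H2-Ab1 had no island in untreated cells, and its ratio per kb, -0.20, uses a fill-in density for them. Ciita, the master regulator of the family, stood at 0.05.

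Immediate early genes of the AP-1 and related families had 5 higher and 3 lower of 26 (median 0.27), against 9.87% and 10.7% of all genes. Fosl2, a FOS family gene, had 8028 normalised reads in IL-4 cells and 1790 in untreated cells (4.49-fold, 4.26 to 4.73), with a called length of 69.4 and 16.8 kb and a density ratio of 1.09. Maff (shared with Tmem184b) was 2.97-fold higher. Btg2, an antiproliferative gene, had 369.6 in IL-4 cells and 890.6 in untreated cells (2.41-fold lower), Atf3 4234 and 8997 (2.13-fold lower) and Klf2 834.8 and 1754 (2.10-fold lower). Jun, Junb and Fos stood at 0.77, 0.27 and -0.51. Of 7 C/EBP genes 1 was lower, Ddit3 (shared with Mbd6), with 956.5 and 2039.

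In the cell cycle list 2 of 22 were higher, a share near the 9.87% of all genes. Both are D-type cyclins, which start the cycle in response to growth signals, and the other D-type cyclin, Ccnd3 (shared with Bysl and Taf8), stood at -0.33. Ccnd2 had 1231 normalised reads in IL-4 cells and 95.8 in untreated cells (12.9-fold, 10.4 to 16.1), over 13.6 and 2.0 kb. Ccnd1 (shared with LTO1) had 2472 and 1085 over the same called length (2.28-fold). Mki67, Top2a and Pcna stood at -0.28, 0.33 and 0.19. Of 10 metalloproteinases and inhibitors 2 were higher (Mmp9 and Timp1) and 3 lower, against 9.87% and 10.7% of all genes. The lower ones were Mmp12, with 781.9 and 2090 (2.67-fold), and the single region of Mmp8 and Mmp27, chr9:7556201-7580800, with 822.8 in IL-4 cells and 5152 in untreated cells (6.26-fold, 5.83 to 6.73).

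Of 20 defining macrophage markers all had a region, none was higher and 2 were lower, with a median of 0.03. The 18 others lay between -0.86 (Mpeg1) and 0.65 (Cebpa), with Spi1 at 0.07, Csf1r at 0.26, Adgre1 at 0.30, Cd68 at -0.44, Irf8 at -0.34 and Lgals3 at -0.67. Lyz2, the lysozyme gene (shared with Lyz1), had 1419 normalised reads in IL-4 cells and 6653 in untreated cells, 4.69-fold lower (4.43 to 4.96), and Cd14 (shared with Tmco6, Ik, Ndufa2 and E230025N22Rik) 4688 and 11381 (2.43-fold lower). In bulk chromatin, fewer cells of a type and less signal per cell cannot be told apart. The summed level of the 20 markers was 109439 in IL-4 cells and 128244 in untreated cells. Of 18 housekeeping genes 2 were higher, Rps18, in a region with 5 other genes, and Rplp0 (shared with Gcn1), and the median was 0.27.

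Markers of other cell types were mostly without islands. Of T cell markers 4 of 8 were measured, with a summed level of 2346 in IL-4 cells and 9113 in untreated cells. Cd3e, Cd3g, Cd8a and Tcf7 were called in neither library, Cd4 (shared with Lag3, Gpr162 and P3h3) and Cd28 were lower, and Lck and Cd3d stood at 0.70 and -0.05. Of B cell markers 3 of 8 were measured (4723 in IL-4 cells and 6896 in untreated cells, with Pax5 not called), of fibroblast markers 1 of 8 (Pdgfrb, in the region of Csf1r), and of NK cell markers 1 of 6, Klrb1c, with 166.2 in IL-4 cells and no island in untreated cells. Of neutrophil markers 5 of 10 had a region (7530 and 6248, with Ly6g, Mpo and S100a9 not called), and Cxcr2 (shared with Rufy4) had 1373 in IL-4 cells and no island in untreated cells. Ltf was higher too, with 679.7 and 337.1, but at -0.75 with islands merged over 13 libraries, and Elane and Csf3r stood at -0.53 and -0.06. Of mast cell and basophil markers 3 of 8 were measured (5730 and 1492, with Kit, Fcer1a and Cpa3 not called), the 1 higher call being in the region of Ms4a2, Ms4a3 and Ms4a6d. Eosinophil markers had 2 of 5 (10256 and 6118, with Epx and Prg2 not called) and dendritic cell markers 6 of 8 (5544 and 9195, with Ccr7 and Cd209a not called), where Siglech was 6.26-fold lower and Bcl11a lower. The part of other cells in the gene results was not tested. Of osteoclast markers 5 of 6 had a region and 1 was higher (median -0.23). That was Itgb3, the β3 integrin gene, with 11985 in IL-4 cells and 2263 in untreated cells (5.30-fold, 5.06 to 5.55), while Ctsk, Acp5, Nfatc1 and Oscar stood at -0.23, -0.26, -0.88 and 0.53.

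Each call rests on 1 untreated library, so each gene was also placed beside the 3 other untreated libraries, which carry an shRNA and belong to another experiment. For these values islands were merged over all 13 libraries and reads divided by factors over the regions called in all of them. Of the 1282 higher genes IL-4 cells lay above all 3 in 1093 (85.3%), where 39.5% of all tested genes do, and at least 2-fold above all 3 in 646 (50.4%, against 6.77%). Of the 1387 lower genes IL-4 cells lay below all 3 in 1226 (88.4%, against 45.3%) and at least 2-fold below in 563 (40.6%, against 7.18%). The untreated library of the comparison itself lay above all 3 in 70.7% of the lower genes, against 40.9% of all, and below all 3 in 52.5% of the higher genes, against 38.9% of all. Both libraries of the comparison chose these genes, which favours all of these shares, so they are a description and no independent support.

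**Figure D4:**
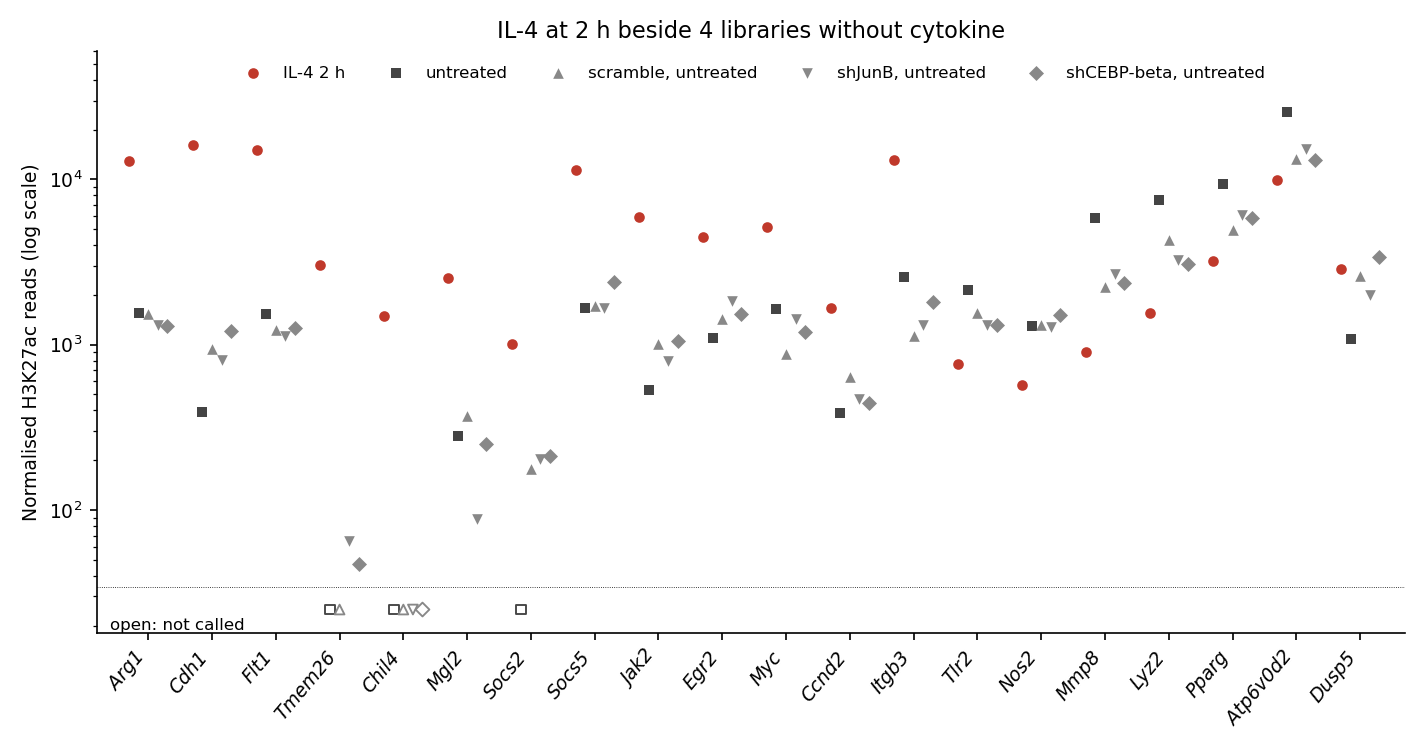
Normalised H3K27ac reads (log scale) at 20 genes in IL-4 cells (red), the untreated library of the comparison (dark grey) and 3 untreated libraries with an shRNA (light grey), with 1 point per library and open symbols at the foot for libraries with no island. At Arg1, Flt1, Socs5 and Itgb3 the red point is above all grey points, at Lyz2, Mmp8 and Pparg below all of them, and at Dusp5 among them.

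Side by side, Arg1 had 12984 normalised reads in IL-4 cells and 1554, 1524, 1324 and 1297 in the untreated, scramble, shJunB and shCEBP-beta libraries without cytokine. In the same order, Flt1 had 14996 against 1536, 1228, 1132 and 1265, and Socs5 had 11322 against 1661, 1724, 1667 and 2409. At these genes the 4 libraries without cytokine lay close together and far under IL-4 cells. Cdh1 had 16173 against 393.3, 945.7, 803.0 and 1209, so its untreated library was the lowest of the 4. Chil4 and Gata3 were called in IL-4 cells and in none of the 4. Among genes called lower, Pparg had 3194 in IL-4 cells against 9363, 4969, 6091 and 5834, Lyz2 1559 against 7499, 4286, 3232 and 3076, and Tlr2 760.2 against 2150, 1549, 1312 and 1322. Mmp12 had 859.2 in IL-4 cells against 2356, 839.7, 1513 and 973.7, and Sms 847.9 against 2356, 863.5, 1404 and 1061, so the scramble library without cytokine was about as low as IL-4 cells at both. Among the higher genes, Dusp5 had 2870 in IL-4 cells against 1084, 2619, 2002 and 3413, Ets2 1005 against 480.7, 975.9, 899.7 and 987.6, and Odc1 551.0 against 268.3, 475.5, 570.7 and 647.1, so at these 3 genes the difference was found against the 1 untreated library and not against the others.

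A comparison that shares no library with it came from IFNγ with IL-4 against IFNγ alone. At 2 h 3.20% of genes were higher and 2.21% lower there. Of the 1238 genes higher with IL-4 alone and measured there, 211 (17.0%) were also higher with both cytokines than with IFNγ and 70 (5.65%) lower, and the 211 make up 52.4% of the 403 genes higher there. Of 1279 genes lower with IL-4 alone, 60 (4.69%) were lower there too and 43 (3.36%) higher. The 60 make up 21.5% of the 279 lower there, where 10.7% of all tested genes were lower with IL-4 alone. The 70 genes higher with IL-4 alone are part of the same 279, so more of these went the opposite way than the same way. At 4 h, where 5.51% of genes were higher and 5.23% lower, 297 of 1234 higher genes (24.1%) were higher and 76 (6.16%) lower, and 154 of 1303 lower genes (11.8%) were lower and 100 (7.67%) higher. The medians of the log2 ratio with IFNγ present were 0.23 at 2 h and 0.35 at 4 h for the higher genes and 0.03 and -0.05 for the lower genes, against 0.06 and 0.02 over all genes.

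**Figure D5:**
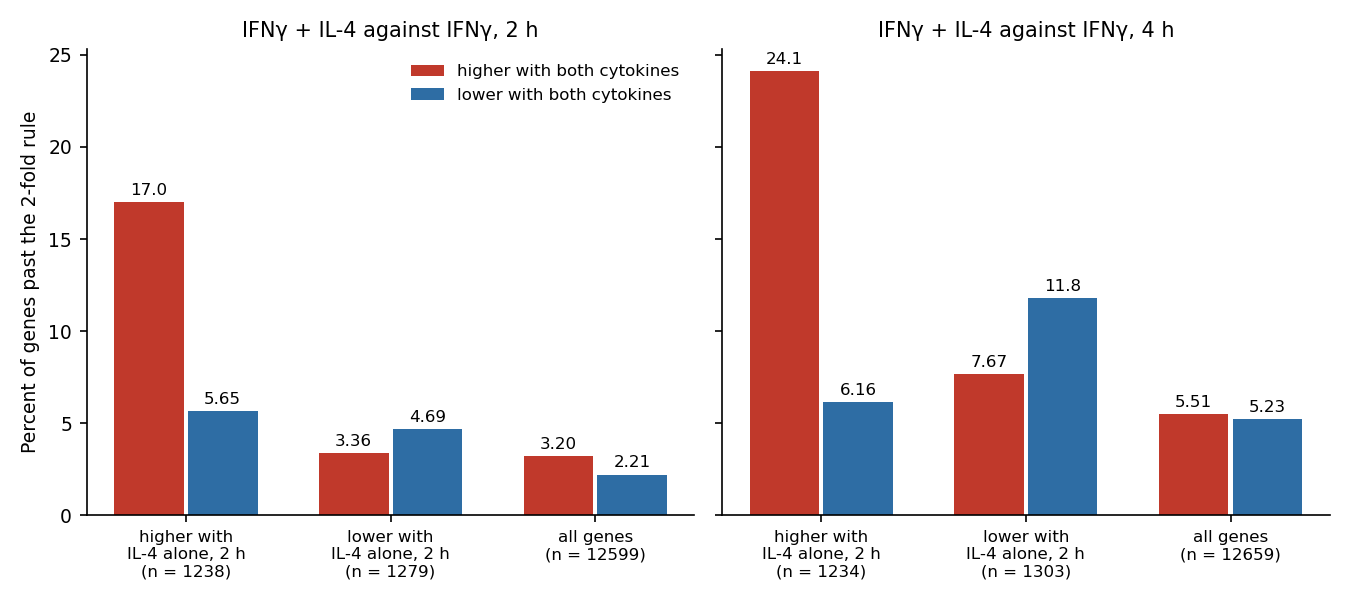
Percent of genes at least 2-fold higher (red) or lower (blue) with IFNγ and IL-4 than with IFNγ alone at 2 h (left) and 4 h (right), for genes higher with IL-4 alone at 2 h, genes lower with it, and all genes tested. Of the higher genes 17.0% and 24.1% were higher again, against 3.20% and 5.51% of all genes.

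Named genes took both courses with IFNγ present. Ccl24 had 4707 normalised reads with both cytokines and 506.0 with IFNγ alone at 2 h, and 5875 and 209.3 at 4 h. Mgl2 had 1233 and 121.8 at 2 h, Socs5 5735 and 1829, Batf3 24236 and 8479, and Ptgs1 1524 and 322.7, again with both cytokines first. Chil4, Rnase2a and Gata3 were called with both cytokines and not with IFNγ alone at 2 h. Arg1 had 6522 with both and 3313 with IFNγ (1.97-fold), under the 2-fold rule, and 9213 and 2756 at 4 h. Other IL-4 genes were already high with IFNγ alone. Jak2 had 4636 with both and 4035 with IFNγ, Socs1 25980 and 24955, Ptpn2 6343 and 5480, Tgm2 22054 and 20945, and Ccl7 36071 and 40085. Bcl6 had 11569 with both and 14154 with IFNγ, against 6363 with IL-4 alone and 2956 in untreated cells. Pparg was higher with both cytokines than with IFNγ, 8166 and 3720, where IL-4 alone had the lower value. Itgb3 had 4661 with both cytokines and 1594 with IFNγ, Msx3 1983 and 219.5, and Edn1 8927 and 3762. Of the genes lower with IL-4 alone, Lyz2 had 299.9 with both cytokines and 885.8 with IFNγ, and Tlr2 927.6 and 2323.

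Cells given IL-4 for 4 h share the untreated library, so the values are set side by side without a count. Arg1 had 12984 normalised reads at 2 h and 10683 at 4 h, Cdh1 16173 and 14304, Flt1 14996 and 13634, and Socs5 11322 and 11400. Tmem26 had 3048 at 2 h and 4123 at 4 h, Chil4 1488 and 2025, Itgax 2010 and 2906, and Scn3a 3186 and 7320. Others were lower at 4 h than at 2 h, among them Tgm2 with 15694 and 4576, Cd36 with 18546 and 8201, Dusp5 with 2870 and 1277, Il1a with 1939 and 568.1, and Gata3 with 632.6 and 278.9. Pparg stood at 3194 at 2 h and 6115 at 4 h, with 9363 in untreated cells, and Lyz2 at 1559 and 1983, with 7499.

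Away from any annotated gene the highest ratios were in 4 regions. The region chr13:44665801-44688600, 42.2 kb from Jarid2, a Polycomb-associated gene, had 2216 normalised reads in IL-4 cells and 36.6 in untreated cells. The region chr19:34358001-34379400, 30.2 kb from Fas, the death receptor gene, had 2592 in IL-4 cells, chr15:62799001-62825800, 808.6 kb from Myc, 2426, and chr3:68649401-68671400, 19.2 kb from Il12a, 2297, each with no island in untreated cells. The lowest were chr11:110687601-110708600, 162.1 kb from Map2k6, with 2842 in untreated cells, chr16:97228401-97253800, 57.3 kb from Dscam, with 1918, chr10:117310801-117339200, 5.5 kb from Cpsf6, with 1759, and chr13:32538401-32552000, 148.8 kb from Mylk4, with 1420, none of which had an island with IL-4. Each was a single island of 13600 to 28400 bp. The nearest protein-coding gene is given for position only.

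Regions also lay within 1 kb of microRNA hairpins, short RNAs that repress messages through the seed, bases 2 to 8. Of 963 hairpins listed by RefSeq, 278 had a region with enough reads, 40 of them in 28 higher regions and 24 in 24 lower regions of 246, which are smaller shares than the 14.8% and 19.2% of all regions. The ones below were chosen after their values were seen, for shared seeds or for known roles of the hairpin gene in macrophages and inflammation. For Mir147 only the 5p arm was listed. Capitals mark the seed.
mmu-let-7a-5p: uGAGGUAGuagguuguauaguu
mmu-let-7f-5p: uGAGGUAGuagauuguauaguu
mmu-miR-132-3p: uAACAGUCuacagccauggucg
mmu-miR-212-3p: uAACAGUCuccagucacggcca
mmu-miR-17-5p: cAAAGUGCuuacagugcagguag
mmu-miR-20a-5p: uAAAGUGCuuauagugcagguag
mmu-miR-147-5p: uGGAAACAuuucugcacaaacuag
mmu-miR-223-3p: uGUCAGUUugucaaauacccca
mmu-miR-199a-5p: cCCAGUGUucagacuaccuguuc
The region by Mirlet7a-1 and Mirlet7f-1, which share a seed, had 8526 normalised reads in IL-4 cells and 3024 in untreated cells (2.82-fold). The region at Mir132 and Mir212, whose 3p arms share a seed, had 163.4 in IL-4 cells and no island in untreated cells. The region within 1 kb of Mir17 and Mir20a had 212.7 in IL-4 cells and 68.9 in untreated cells (3.09-fold), and miR-17-5p and miR-20a-5p share a seed. Mir147 had 208.9 and 48.5 (4.31-fold). Mir223, a microRNA of granulocytes and macrophages, was lower, with 1395 in IL-4 cells and 3000.2 in untreated cells. Both genes of miR-199a were lower, Mir199a-2 with 335.2 and 1359 and Mir199a-1 with no island in IL-4 cells and 150.8 in untreated cells. Mir21a and Mir142, which are abundant in macrophages, passed in neither direction, with log2 ratios of 0.62 and 0.20. The mark at a hairpin does not measure the mature microRNA.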

How the data were processed

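The deposited files list islands of H3K27ac enrichment, 1 file per library, called by the authors with SICER 1.1 on Bowtie2 2.2.6 alignments to mm10, per the submitters' processing notes. Each deposited island holds a raw count of ChIP reads and of control reads, a p-value, an FDR and a ratio of ChIP to control. Only islands that passed the authors' threshold are listed, so a region with no island has no value. Counts were used as deposited. The p-value, FDR and ratio served for filters and to recover library totals, of which the smallest that fit were taken. Islands were merged at 1 bp overlap, and counts were divided by median-ratio factors (ratio between the libraries 1.16). Genes were given the summed reads of all regions touching their RefSeq span (GRCm38.p6) or 1 kb beside it. A library with no island was filled with 55 reads for IL-4 cells and 47 for untreated cells in log2 ratios. Reads carried no molecular identifiers. Genes named are members of the lists, the 12 highest and 12 lowest of those called in both libraries with at least 200 normalised reads, the 8 highest called in 1 library only, and 4 regions in each direction that touch no gene. A few of these are not reported here. The gene lists and the comparison were chosen with earlier results of these data known. Python 3.11.15, pandas 2.3.3 and scipy 1.17.1 were used, and the calculations were tested on simulated data.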

Additional observations from a re-analysis of the deposited data

Results flagged for a closer look

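Among the genes named by the rule, there were 6 at which the direction of IL-4 alone over untreated cells was opposite to that of IFNγ with IL-4 over IFNγ alone at 2 h, each past 2-fold, with 1 library per condition. Over all genes measured in both comparisons, 70 genes higher with IL-4 alone were lower with IFNγ present and 43 lower ones were higher. These differences were not tested. Pparg had a log2 ratio of -1.55 for IL-4 alone over untreated cells and 1.13 with IFNγ present, and Cd28 had -2.32 and 1.33. Kif3a had -5.42 and 3.08, and Gm17359 -4.34 and 2.63. Mmp9 had 1.84 for IL-4 alone and -1.72 with IFNγ present, and Klrb1c 1.68 and -1.53. At Kif3a, Gm17359, Mmp9 and Klrb1c the first ratio uses the fill-in value for a library with no island.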

How the results depend on the processing

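No paired analysis was possible because each condition has 1 library. Counting reads per kb of called length left 1224 regions higher and 2182 lower and 532 genes higher and 395 lower. Only regions called in both libraries gave 2435 higher and 3533 lower, a minimum of 200 normalised reads 2954 higher, and one-to-one matching of islands at 50% reciprocal cover 7945 higher and 9480 lower, since each unmatched island then counts alone. Regions at transcript starts alone gave 768 genes higher and 617 lower. The other alternatives kept each count within 1.5 times. Scaling by total reads gave 1470 genes higher and 1219 lower. Of 135 named genes past the rule 57 kept their call and direction under every alternative that gave a value, and per kb 37 of 81 higher and 26 of 54 lower genes did. The counts per kb include genes with no island in 1 library, which was given a fill-in density. Arg1 and Socs1 were among those under 2-fold per kb. Log2 ratios that turned sign per kb were Bcl11a 0.65, Cmah 0.54, Pfkfb3 0.27, Socs6 0.50, Nfkbiz 0.005, Gbp7 -0.12, H2-Ab1 -0.20, H2-DMb1 -0.60, Il1a -0.53, Irf7 -0.16, Ms4a2 -0.005 and Zbp1 -0.24. For H2-Ab1, with no island in untreated cells, the ratio uses a fill-in density. These ratios use a library factor set on density (ratio 1.147), while the folds per kb at named genes use the factor for reads. With the factor for reads Nfkbiz stood at 0.993-fold per kb, so its sign depends on the factor. With islands of FDR under 1e-10 Bcl11a stood at 0.55, with islands merged over 13 libraries Dcstamp at 0.32 and Ltf at -0.75, with genes extended by 10 kb Dcstamp at 0.12, and at starts alone Cd38 at 0.013 and Sms at 0.26. The value of Cd38 uses the fill-in for IL-4 cells, which had no island there. Called length grows with depth as well as with signal, and the part of depth in these lengths was not tested.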
